A study of Rattus norvegicus with 20 samples.

Results

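The obese-lean difference in the choroid plexus of female Zucker rats was compared between an untreated and an injected cohort. For each gene, the difference between obese + TT and lean + VEH rats was set against the difference between obese and lean rats that were not injected. The genes were those with a mean of at least 1 TPM (transcript abundance already divided by gene length and scaled to the same total in every library) over the 20 rats. They numbered 12094 of the 32883 genes measured, and 2568 of them carry a gene symbol in the tables used here.

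The untreated cohort held 6 lean (+/fa) and 6 obese (fa/fa) rats. The injected cohort held 4 lean (+/fa) rats given sesame oil as vehicle (lean + VEH) and 4 obese (fa/fa) rats given testosterone propionate in sesame oil (obese + TT). All 20 rats were female Zucker rats of 16 weeks, sequenced as 1 library each. There was no obese rat with vehicle and no lean rat with testosterone, so the hormone, the injections and the cohort cannot be told apart in this comparison. The lean rats carried 1 copy of the mutated leptin receptor allele and the obese rats carried only that allele. Nothing in the labels says whether rats of a group shared a litter or a preparation, so the p-values measure the spread between these 20 animals only.

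The choroid plexus is a fringe of epithelium around a vascular and fibrous core that hangs in the brain ventricles and secretes cerebrospinal fluid. The fa mutation disables the leptin receptor, and the animals overeat and become obese. Testosterone is a steroid hormone that alters transcription in its target cells. Chaperones fold and protect other proteins, clock genes run the daily rhythm of a tissue, and matrix genes build its connective framework.

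The libraries of both cohorts were dominated by choroid plexus epithelium. All 10 epithelial marker genes were tested, and their summed level was 348000 TPM in lean, 354900 in obese, 300700 in lean + VEH and 285300 in obese + TT rats, most of it from Ttr (transthyretin, the plexus's carrier of thyroid hormone). Ttr itself took 31.2 to 39.3% of the TPM of untreated and 25.8 to 30.5% of the TPM of injected rats. Its obese-lean difference was 0.03 on the log2 scale in the untreated and -0.08 in the injected cohort (standard errors 0.07 and 0.09). Of 8 marker genes of neurons, 1 carries a symbol here and it did not reach 1 TPM, and none of 5 oligodendrocyte markers carries a symbol. Of 6 astrocyte markers 1 was tested, Gja1, a gap junction protein, at 6.39 TPM in lean, 6.20 in obese, 1.91 in lean + VEH and 3.19 in obese + TT rats. It was higher in the difference of contrasts, at 0.84 (standard error 0.26, unadjusted p = 0.00399, adjusted p = 0.356, limma). The part of astrocytes in the results was not tested.

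The cohorts stood far apart. Lean + VEH and lean rats differed at an adjusted p under 0.05 (limma with Benjamini-Hochberg adjustment over all genes tested) in 7972 genes, 65.9% of those tested, and obese + TT and obese rats in 7918, 65.5%. The summed level of the 3 named mural cell markers of vessel walls, Tagln, Myh11 and Rgs5 (the most abundant in untreated rats) of a list of 8, was 163 TPM in lean, 182 in obese, 16.7 in lean + VEH and 10.6 in obese + TT rats. The 4 named endothelial markers of a list of 10, with Plvap the most abundant, summed to 69.8, 81.0, 11.1 and 9.53 TPM in the same order. In bulk tissue, fewer cells of a type and less RNA per cell cannot be told apart. The difference of contrasts takes each cohort's own lean rats as its base, so a gap between cohorts that is equal in lean and obese rats on the log2 scale cancels in it.

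In a fit of all 20 rats, 1 gene passed an adjusted p of 0.05 in the difference of contrasts (limma on log2(TPM + 0.1), Benjamini-Hochberg adjustment), 0.00827% of the genes tested. This gene was Bicdl1. By unadjusted p, 1029 genes were under 0.05, or 8.51%. Of these, 451 (3.73%) had the higher obese-lean difference in the injected cohort and 578 (4.78%) the lower. Among the 2568 genes with a symbol the share was 13.4%. The symbols come from lists of abundant and of differentially expressed genes and do not sample all genes evenly. Within the cohorts, 1315 genes (10.9%) had an unadjusted p under 0.05 in the untreated contrast and 841 (6.95%) in the injected one, with 3 and 5 past an adjusted p of 0.05.

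About as many genes had opposite as had equal signs in both cohorts. The obese-lean difference had the opposite sign in 51.1% of all genes tested, in 50.0% of the 1315 genes of the untreated contrast (658 genes) and in 49.2% of the 841 genes of the injected contrast. In all, 111 genes had p under 0.05 in both contrasts, which is 8.44% of the 1315 and 13.2% of the 841. Of these, 63 kept their direction and 48 turned it.

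**Figure D1:**
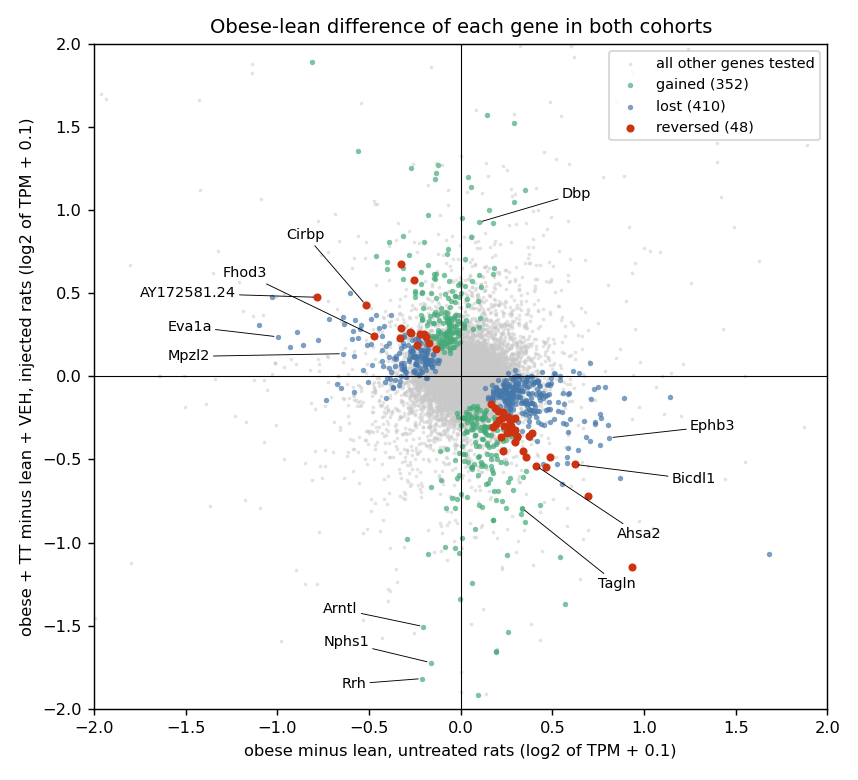
Each point is 1 gene, with its obese-lean difference in untreated rats on the x axis and in injected rats on the y axis, both on the log2(TPM + 0.1) scale; 12023 of the 12094 genes lie within the axes. Red points are the 48 reversed genes, blue the 410 lost and green the 352 gained genes, and Bicdl1 lies to the lower right, higher in untreated obese and lower in obese + TT rats.

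The classes reversed, lost and gained describe the genes behind the difference. They were cut from the contrasts' own values and are given as counts with no test. A gene was called reversed when its unadjusted p was under 0.05 in both contrasts and in the difference and the signs were opposite, which held for 48 genes. A gene was called lost when it had p under 0.05 in untreated rats and in the difference but not in injected rats, and when its injected difference was of the opposite sign or under 0.5 times the untreated one. This held for 410 genes, or 31.2% of the 1315. The mirror of that rule, gained, held for 352 genes.

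Of the 48 reversed genes, 33 were higher in untreated obese than in lean rats and lower in obese + TT than in lean + VEH rats, and 15 ran the other way. Their differences were small, with a median size of 0.27 in untreated and 0.30 in injected rats on the log2 scale. The 4 + 4 injected groups did not overlap in 20 of the 48 and the 6 + 6 untreated groups in 4. Over all genes tested, groups did not overlap in 0.546% of genes in the untreated and in 4.28% in the injected cohort, where 4 animals a side separate more easily. The class was chosen by p in both contrasts, so nothing is read from the counts of 20 and 4. Both cohorts were free of overlap with opposite directions in 2 genes, 0.0165% of those tested, Fhod3 and ENSRNOG00000019108. Just inside the rule lay Sec14l4 (larger p of both contrasts 0.0495, limma), and Erlin2 (0.0532) and Foxj2 (0.0540) fell just outside.

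Bicdl1 (ENSRNOG00000056955), an adaptor that couples vesicles to microtubule motors, had the smallest p of the difference. Its level in the lean rats ran from 12.6 to 19.5 TPM with a median of 14.9, and in the obese rats from 19.2 to 27.5 with a median of 23.7. It stood at 19.2, 21.0, 17.5 and 19.0 TPM in the 4 lean + VEH rats and at 15.5, 13.4, 14.6 and 10.1 in the 4 obese + TT rats. The untreated groups met only where the highest lean rat passed the lowest obese rat, and all 4 obese + TT rats lay below all 4 lean + VEH rats.

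The obese-lean difference of Bicdl1 was 0.62 (standard error 0.12) in untreated and -0.53 (standard error 0.14) in injected rats on the log2 scale. Exact two-sided permutation tests gave p = 0.00433 for the 6 + 6 rats and p = 0.0286 for the 4 + 4 rats. The latter is the smallest that groups of 4 can give and follows from their lack of overlap. Bicdl1 was picked by its difference of contrasts in the same rats, so both p-values only describe it. Between the cohorts the difference was -1.15 (standard error 0.18), with an adjusted p of 0.0477 in limma. It kept its sign in each of the 20 fits without 1 rat, from -1.23 to -1.02, but its adjusted p was under 0.05 in 7 of them and above it in the other 13.

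Adamtsl4 (ENSRNOG00000049385), a secreted glycoprotein that binds fibrillin microfibrils, also turned from higher to lower. The lean rats ran from 23.2 to 27.9 TPM (median 24.9) and the obese rats from 26.7 to 34.5 (median 28.5). The lean + VEH rats stood at 53.4, 52.6, 54.3 and 50.2 TPM and the obese + TT rats at 36.3, 32.9, 41.6 and 44.7. The injected groups were apart, the untreated groups overlapped, and both injected groups lay above most untreated rats. Its difference of contrasts was -0.68 (standard error 0.12), with an adjusted p of 0.126 in limma.

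Fhod3 (ENSRNOG00000027230), a formin that assembles actin filaments, ran the other way. It was measured at 7.32 to 9.80 TPM (median 8.96) in lean and 4.85 to 7.16 (median 6.50) in obese rats. In the injected cohort the lean + VEH rats stood at 9.73, 9.57, 10.2 and 9.69 TPM and the obese + TT rats at 12.3, 11.6, 11.2 and 11.4. Neither pair of groups overlapped. The obese-lean difference was -0.47 (standard error 0.09) in untreated and 0.24 (standard error 0.12) in injected rats. Groups without overlap always give the smallest exact permutation p of their sizes, here 0.00216 and 0.0286, so nothing is read from these p-values. The difference of contrasts of 0.72 (standard error 0.15) had an adjusted p of 0.132 in limma. The unnamed gene ENSRNOG00000019108, singled out after its values were seen, lay at 9.16 to 11.7 TPM in lean, 11.7 to 14.2 in obese, 17.1 to 20.1 in lean + VEH and 13.6 to 16.2 in obese + TT rats.

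**Figure D2:**
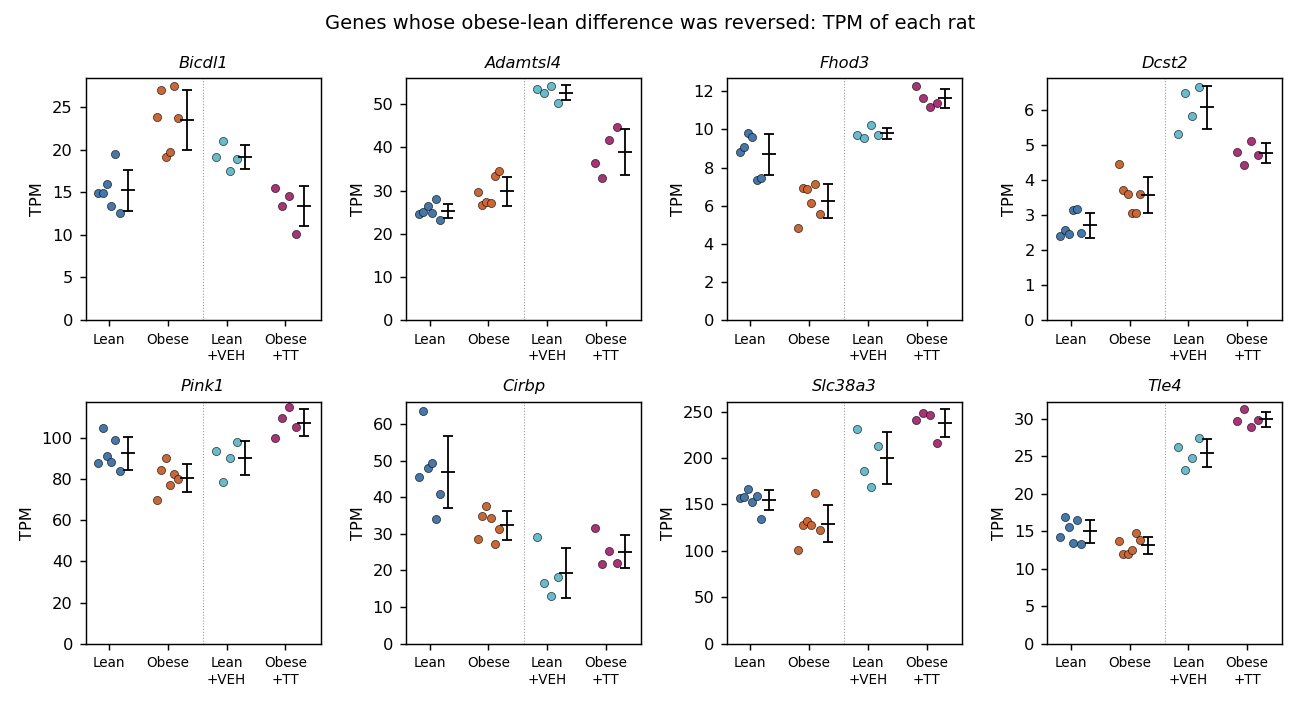
TPM of each rat (points), with the mean and SD of the group beside it, for 8 reversed genes, each on a linear axis from 0. The mean of obese rats is above that of lean rats for Bicdl1, Adamtsl4 and Dcst2 and below it for the other 5 genes, and the mean of obese + TT rats is on the other side of that of lean + VEH rats, while single rats of Fhod3 alone are apart in both cohorts.

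Pink1 and Cirbp act in the care of mitochondria and in the response to cold. Pink1, a kinase that marks damaged mitochondria for removal, was measured at 83.9 to 105 TPM (median 89.6) in lean and 69.9 to 90.2 (median 81.1) in obese rats. It stood at 93.7, 78.6, 90.3 and 97.8 TPM in lean + VEH and at 99.8, 109, 115 and 105 in obese + TT rats, which were apart. The mean was 12.9% lower in untreated obese rats than in lean rats and 19.1% higher in obese + TT than in lean + VEH rats. Cirbp, the cold-inducible RNA-binding protein, had the larger turn, from -0.52 (standard error 0.16) to 0.43 (standard error 0.20) on the log2 scale. Its lean + VEH rats stood at 29.0, 16.6, 13.1 and 18.2 TPM and its obese + TT rats at 31.6, 21.7, 25.3 and 22.0, so the injected groups overlapped through 1 lean + VEH rat.

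Slc38a3, Tle4 and Mfrp were also lower in the mean of untreated obese rats and higher in that of obese + TT rats. Slc38a3, a glutamine transporter, averaged 155 ± 10.7 TPM in lean and 129 ± 19.8 in obese rats (SD, n = 6 each), and 200 ± 28.0 in lean + VEH and 238 ± 14.7 in obese + TT rats (SD, n = 4 each). Tle4, a corepressor of the Groucho family, averaged 15.0 ± 1.54 and 13.1 ± 1.17 TPM in the untreated groups and 25.4 ± 1.86 and 29.9 ± 0.988 in the injected groups. Mfrp, a frizzled-related membrane protein known from the eye, was the most abundant of the named genes of the class and among the smallest in change, with -0.14 (standard error 0.06) in untreated and 0.17 (standard error 0.08) in injected rats. Sec14l4, a lipid-binding protein of the SEC14 family, and Ncapd3, a condensin subunit, turned from -0.24 to 0.19 and from -0.22 to 0.25 on the log2 scale, and both were named after their values were seen.

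The other reversed genes named here ran from higher to lower, except AY172581.24. Dcst2, a membrane protein known from sperm, turned from 0.39 (standard error 0.10) to -0.34 (standard error 0.13) on the log2 scale. Ahsa2, related to the activator of the Hsp90 ATPase, turned from 0.41 (standard error 0.18) to -0.54 (standard error 0.22), with overlapping groups in both cohorts. Srsf3, a splicing factor, turned from 0.19 to -0.19. AABR07031489.1 turned from 0.31 to -0.37. AY172581.24 turned from -0.78 (standard error 0.16) to 0.48 (standard error 0.20), with untreated groups apart and injected groups overlapping. It is named after the sequence of the rat mitochondrial genome and was not counted with the 13 mitochondrial transcripts described further on.

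The lost genes were 252 that had been higher and 158 that had been lower in untreated obese rats. In 380 of the 410 the injected difference had the opposite sign and in 30 it had the same sign at under 0.5 times the size. The rule asks for p under 0.05 in the difference of contrasts, which favours opposite signs. Among all genes with p under 0.05 in the untreated contrast 50.0% had opposite signs, so nothing is read from the count of 380. The median size was 0.31 in untreated and 0.12 in injected rats on the log2 scale.

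Mpzl2, an epithelial adhesion molecule, had the smallest p of the difference among the lost genes. It lay at 22.0 to 27.6 TPM (median 24.8) in lean and 12.1 to 19.8 (median 16.3) in obese rats. It stood at 20.3, 19.1, 17.1 and 18.9 TPM in lean + VEH and at 19.5, 21.6, 22.2 and 19.6 in obese + TT rats. The untreated groups were apart, the injected groups overlapped, and the means of both injected groups lay between those of the untreated ones. The obese-lean difference was -0.64 (standard error 0.11) against 0.14 (standard error 0.13), and the difference of contrasts of 0.78 (standard error 0.17) had an adjusted p of 0.132 in limma.

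Eva1a, a membrane protein linked to autophagy, averaged 6.52 ± 1.47 TPM in lean and 3.22 ± 0.772 in obese rats (SD, n = 6 each), which were apart. It stood at 1.16, 2.05, 1.74 and 1.62 TPM in lean + VEH and at 1.90, 1.58, 1.69 and 2.66 in obese + TT rats. The injected groups overlapped, and 6 of their 8 rats lay below the lowest untreated obese rat, at 1.95 TPM. Saxo2, which stabilises the microtubules of cilia, had a difference of -0.72 (standard error 0.16) in untreated and 0.34 (standard error 0.20) in injected rats, and the former came with lean rats at 10.7 TPM or more in 4 cases and at 7.93 and 5.24 in the other 2, against 5.17 to 6.26 in the obese rats.

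Ephb3, Nfya, Zbtb7b and Rarg were among the 252 lost genes that were higher in untreated obese rats. Ephb3, a receptor tyrosine kinase for ephrins, lay at 0.630 to 1.21 TPM in lean and 1.33 to 1.74 in obese rats, which were apart, and at 2.15 to 3.21 in lean + VEH and 1.62 to 2.72 in obese + TT rats, which overlapped. Between the contrasts Ephb3 differed by -1.18, and by -0.73 with a pseudocount of 1. Nfya, a subunit of the factor that binds CCAAT boxes, lay at 3.28 to 4.81 TPM in lean and 5.47 to 6.46 in obese rats, also apart, and its injected groups overlapped. Zbtb7b, a zinc finger transcription factor, and Rarg, a retinoic acid receptor, had untreated differences of 0.40 (standard error 0.08) and 0.55 (standard error 0.11) and injected differences of -0.17 and -0.21 on the log2 scale. All 4 were at higher levels in both injected groups than in the lean rats of the untreated cohort.

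**Figure D3:**
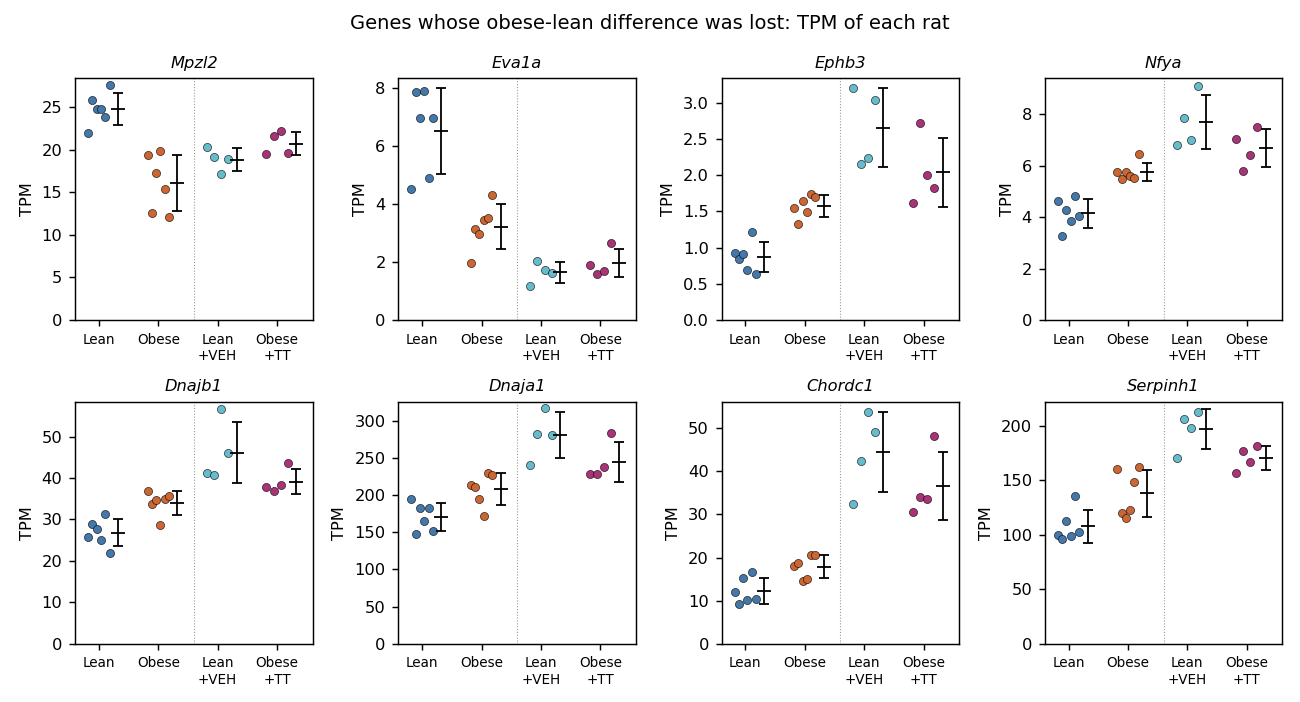
TPM of each rat (points), with the mean and SD of the group beside it, for 8 lost genes on linear axes from 0. The untreated groups of Mpzl2, Eva1a, Ephb3 and Nfya are apart, the injected groups of all 8 genes overlap, and the 4 chaperone genes of the lower row are higher in both injected groups than in the lean rats.

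Dnajb1, Dnaja1 and Chordc1, which fold and protect proteins in stressed cells, were lost genes of the list of heat shock chaperones. Of its 27 chaperones and cochaperones 19 were tested. The difference of contrasts was lower at an unadjusted p under 0.05 in 5 of them (Dnajb1, Dnaja1, Chordc1, Ahsa2 and Stip1) and higher in none, and none passed the adjusted threshold. The share was 26.3%, against 8.51% of all genes tested and 13.4% of those with a symbol, which every listed gene has. This list and those below were chosen with earlier results of these data known, so their shares are descriptions only. The median of the 19 was 0.069 in the untreated contrast, -0.23 in the injected contrast and -0.23 in the difference, where the medians over all genes tested were 0.017, 0.0077 and -0.0068. The list's most abundant members were Hspe1, Hspa8 and Hsp90aa1, with differences of contrasts of -0.31, -0.24 and -0.07 on the log2 scale that did not pass the test. That of Hspe1 was -0.12 without lean + VEH rat 14. Without lean + VEH rat 13 the count of lower genes was 10 of 19. Stip1, an organiser of Hsp70 and Hsp90, was named after its values were seen.

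Dnajb1, an Hsp40 protein that hands clients to Hsp70, lay at 22.0 to 31.4 TPM (median 26.7) in lean and 28.6 to 36.8 (median 34.8) in obese rats. It stood at 41.2, 40.6, 56.6 and 46.1 TPM in lean + VEH and at 37.8, 37.0, 38.2 and 43.6 in obese + TT rats. The groups overlapped in both cohorts, and every injected rat lay above every untreated rat. Its obese-lean difference was 0.35 (standard error 0.09, exact permutation p = 0.00649) in untreated and -0.23 (standard error 0.11, exact permutation p = 0.0857) in injected rats. Dnajb1 was named from these same values, so both p-values only describe it.

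Dnaja1, another Hsp40 protein, averaged 171 ± 18.8 TPM in lean and 208 ± 21.8 in obese rats (SD, n = 6 each), and 280 ± 31.0 in lean + VEH and 244 ± 26.8 in obese + TT rats (SD, n = 4 each). Chordc1, a partner of Hsp90, had a difference of 0.56 (standard error 0.15) in untreated and -0.28 (standard error 0.19) in injected rats. Serpinh1, the collagen chaperone of the endoplasmic reticulum, averaged 108 ± 14.8 and 138 ± 21.4 TPM in the untreated groups and 197 ± 18.7 and 171 ± 11.3 in the injected groups. Together with Xbp1, a transcription factor of the unfolded protein response (0.38 in untreated and -0.22 in injected rats), it was 1 of 2 lower genes among 19 tested on the list of endoplasmic reticulum chaperones. The median difference of contrasts of the list was -0.035. The share of 10.5% lay between the 8.51% of all genes and the 13.4% of those with a symbol. Signs of both contrasts were opposite in only 4 of the 19. At an unadjusted p under 0.05 (limma), 3 were higher and 6 lower in untreated obese rats, and 4 were lower in obese + TT rats. Serpinh1 is also on the matrix list below. Without lean + VEH rat 13, 4 of the 19 were lower and their median was -0.084. Without rat 14 the median turned to 0.016.

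Heat shock factor binds inverted repeats of GAA, and the minimal pair GAANNTTC was searched in the 250 bases before the annotated start of each gene in RefSeq (GRCr8, a later build than that of the expression files, matched by symbol). The motif reads the same on both strands. It was present in 9 of the 17 tested heat shock chaperones that have an entry (52.9%). Among the classes it was in 10 of 120 lost (8.33%), none of 10 reversed and 5 of 85 gained genes (5.88%). Over 27457 genes the share was 7.71%. A match describes these letters only. The upstream bases of 3 lost chaperone genes that hold it are shown here 5′ to 3′ on the gene's strand, with the match in capitals. They are chr19:41431142-41431391 on the minus strand for Dnajb1, where the match begins 11 bases before the start, chr5:60638154-60638403 on the plus strand for Dnaja1 (181 bases before) and chr1:163062977-163063226 on the minus strand for Serpinh1 (30 bases before).
Dnajb1: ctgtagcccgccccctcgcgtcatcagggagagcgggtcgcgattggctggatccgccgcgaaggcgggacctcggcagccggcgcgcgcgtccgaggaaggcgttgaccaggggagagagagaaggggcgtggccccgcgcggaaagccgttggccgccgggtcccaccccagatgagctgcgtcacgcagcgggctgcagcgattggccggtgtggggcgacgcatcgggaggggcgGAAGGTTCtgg
Dnaja1: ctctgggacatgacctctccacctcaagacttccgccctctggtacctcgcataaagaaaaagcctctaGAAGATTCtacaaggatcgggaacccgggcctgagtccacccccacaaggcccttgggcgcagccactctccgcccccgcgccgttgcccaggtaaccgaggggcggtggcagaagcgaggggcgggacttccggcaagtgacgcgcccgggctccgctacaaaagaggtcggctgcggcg
Serpinh1: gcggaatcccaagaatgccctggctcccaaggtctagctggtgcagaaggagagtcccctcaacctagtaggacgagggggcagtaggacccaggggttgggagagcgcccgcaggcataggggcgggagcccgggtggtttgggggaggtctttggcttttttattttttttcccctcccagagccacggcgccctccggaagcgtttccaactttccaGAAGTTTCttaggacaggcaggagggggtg

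The half-site of steroid hormone response elements, AGAACA or its complement TGTTCT, was searched in the same windows. It occurred in 3 of 10 reversed, 14 of 120 lost (11.7%) and 11 of 85 gained genes (12.9%), against 18.5% of all genes. CCAAT or its complement ATTGG, the letters bound by the factor of which Nfya is a subunit, occurred in 49 of 120 lost (40.8%), 5 of 10 reversed and 36 of 85 gained genes (42.4%), against 36.1% of all genes.

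RNA-binding proteins of the cold and splicing response moved in both directions. Of 22 tested, 5 had a higher and 9 a lower difference of contrasts at an unadjusted p under 0.05, the signs of both contrasts were opposite in 19, and the median difference was -0.13. These are shares of 63.6% called and 86.4% with opposite signs, against 13.4% called among all genes with a symbol and 47.7% with opposite signs among the same genes. The list was chosen with earlier results of these data known, so these shares only describe it. Without lean + VEH rat 14, 3 were higher and 9 lower. Both cold-inducible proteins were among the higher ones, Cirbp with a difference of contrasts of 0.95 (standard error 0.25) and Rbm3 with 0.56. Srsf5, a splicing factor, averaged 220 ± 16.4 TPM in lean and 178 ± 16.4 in obese rats (SD, n = 6 each), which were apart, and 152 ± 20.6 in lean + VEH and 161 ± 14.3 in obese + TT rats (SD, n = 4 each), which overlapped. Among the lower ones were Srsf3, Rbm14 (0.53 in untreated and -0.15 in injected rats), a coactivator found in nuclear paraspeckles, and Clk1 (0.13 and -0.31), a kinase of splicing factors. Sfpq, a paraspeckle protein, lay at 12.5 to 15.9 TPM in lean and 16.2 to 26.7 in obese rats, which were apart, and had an injected difference of -0.01 (standard error 0.14). Hnrnpdl, another RNA-binding protein, had differences of -0.37 and 0.11. Rbm3, Hnrnpdl, Sfpq and Clk1 were named after their values were seen.

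The gained genes show which differences were present in the injected cohort only by these thresholds. Of the 352, 181 were higher and 171 lower in obese + TT than in lean + VEH rats, with a median size of 0.39 on the log2 scale in injected and 0.10 in untreated rats. The injected groups were apart in 153 of them, against 4.28% of all genes tested, and the class was chosen by the injected contrast, so nothing is read from that count.

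Nphs1, which encodes nephrin, and Rrh, which encodes the opsin-like protein peropsin, had the lowest injected differences among the named genes. Nphs1 stood at 4.80, 8.95, 8.92 and 4.79 TPM in lean + VEH and at 1.61, 1.86, 2.28 and 1.97 in obese + TT rats, against 2.40 to 4.04 in lean and 2.14 to 4.58 in obese rats. The injected groups were apart and the untreated groups overlapped widely. Its injected difference of -1.72 (standard error 0.23) passed the adjusted threshold within that contrast (adjusted p = 0.00309, limma), and its untreated difference was -0.16 (standard error 0.19). Its difference of contrasts, -1.56 (standard error 0.29), had an adjusted p of 0.126 in limma.

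Rrh stood at 5.75, 14.8, 11.6 and 6.84 TPM in lean + VEH and at 2.88, 1.97, 2.91 and 2.37 in obese + TT rats, and at 6.51 to 11.1 in lean and 4.63 to 11.3 in obese rats. All 4 obese + TT rats lay below every other rat. Its difference of contrasts was -1.61 (standard error 0.34), with an adjusted p of 0.132 in limma. Ube2v2, a partner of ubiquitin-conjugating enzymes, averaged 60.7 ± 6.59 TPM in lean and 60.2 ± 6.19 in obese rats (SD, n = 6 each), and 76.6 ± 3.01 in lean + VEH and 50.9 ± 5.99 in obese + TT rats (SD, n = 4 each). LOC103693375 and AABR07012061.2 had injected differences of -0.58 (standard error 0.12) and -0.41 (standard error 0.09) and untreated differences of 0.18 and 0.14 on the log2 scale.

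Of 16 tested collagen and matrix genes, 7 were lower in the difference at an unadjusted p under 0.05 (Adamtsl4, Col5a1, Serpinh1, Col6a2, Col5a2, Col27a1 and Col9a3) and none higher, with a median of -0.24. This is a share of 43.8%, against 13.4% of all genes with a symbol, and none passed the adjusted threshold. The counts were 1 higher and 7 lower without lean + VEH rat 13, and none higher and 9 lower without rat 14, with a median of -0.41. Col5a1, a fibrillar collagen, stood at 4.51, 5.66, 4.69 and 4.10 TPM in lean + VEH and at 2.84, 1.89, 2.84 and 3.38 in obese + TT rats, which were apart. The untreated rats of Col5a1 ran from 2.38 to 3.26 in lean and 2.49 to 4.58 in obese rats, which overlapped. Col6a2, Col5a2 and Col27a1 had injected differences of -0.53, -0.54 and -0.78 with groups apart, and untreated differences of 0.07, 0.13 and 0.12 on the log2 scale. Col5a2 and Col27a1 were named after their values were seen.

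Of the 3 tested mural cell markers, Tagln and Myh11, both contractile proteins of smooth muscle, were lower at an unadjusted p under 0.05. For this and the next lists of few markers, the share was 8.51% of all genes tested and 13.4% of those with a symbol. Tagln lay at 47.8 to 63.3 TPM in lean and 48.8 to 109 in obese rats, but at 4.29, 4.03, 2.53 and 3.17 in lean + VEH and 2.10, 2.52, 1.56 and 1.71 in obese + TT rats. The injected groups were apart at levels far under those of every untreated rat. Its difference of contrasts was -1.13 (standard error 0.27), with an adjusted p of 0.198 in limma. Myh11 ran from 7.19 to 10.2 TPM in lean, 6.15 to 8.43 in lean + VEH and 3.90 to 5.34 in obese + TT rats, which were the lowest of all 20, and its median in obese rats was 9.06. Cd93, the 1 lower gene of 4 tested endothelial markers, had an untreated difference of -0.09 and an injected difference of -1.02 (standard error 0.24). Between the contrasts Cd93 differed by -0.94, and by -0.55 with a pseudocount of 1. None of 5 tested fibroblast markers passed p of 0.05, but 1 was lower without lean + VEH rat 13 and 1 without rat 14, and their sum was 166, 163, 79.0 and 72.5 TPM in the 4 groups. The part of the vascular and fibrous share of the samples in these results was not tested.

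The 3 tested genes of antigen presentation by MHC class II, of a list of 11, were lower in the difference of contrasts at an unadjusted p under 0.05, against 13.4% of all genes with a symbol in either direction. The symbols come in part from genes called in these same rats. Cd74, the invariant chain, averaged 158 ± 13.6 TPM in lean and 182 ± 19.7 in obese rats (SD, n = 6 each), and 68.5 ± 12.6 in lean + VEH and 45.1 ± 19.6 in obese + TT rats (SD, n = 4 each). The groups of Cd74 overlapped in both cohorts. RT1-Da and RT1-Db1, chains of the class II molecule, had untreated differences of 0.14 and 0.57 and injected differences of -0.65 and -1.37 on the log2 scale, and their reads may be shared with related genes of the locus. Cd74 is also the only gene with a symbol on the list of 9 macrophage markers. The part of resident immune cells was not tested.

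**Figure D4:**
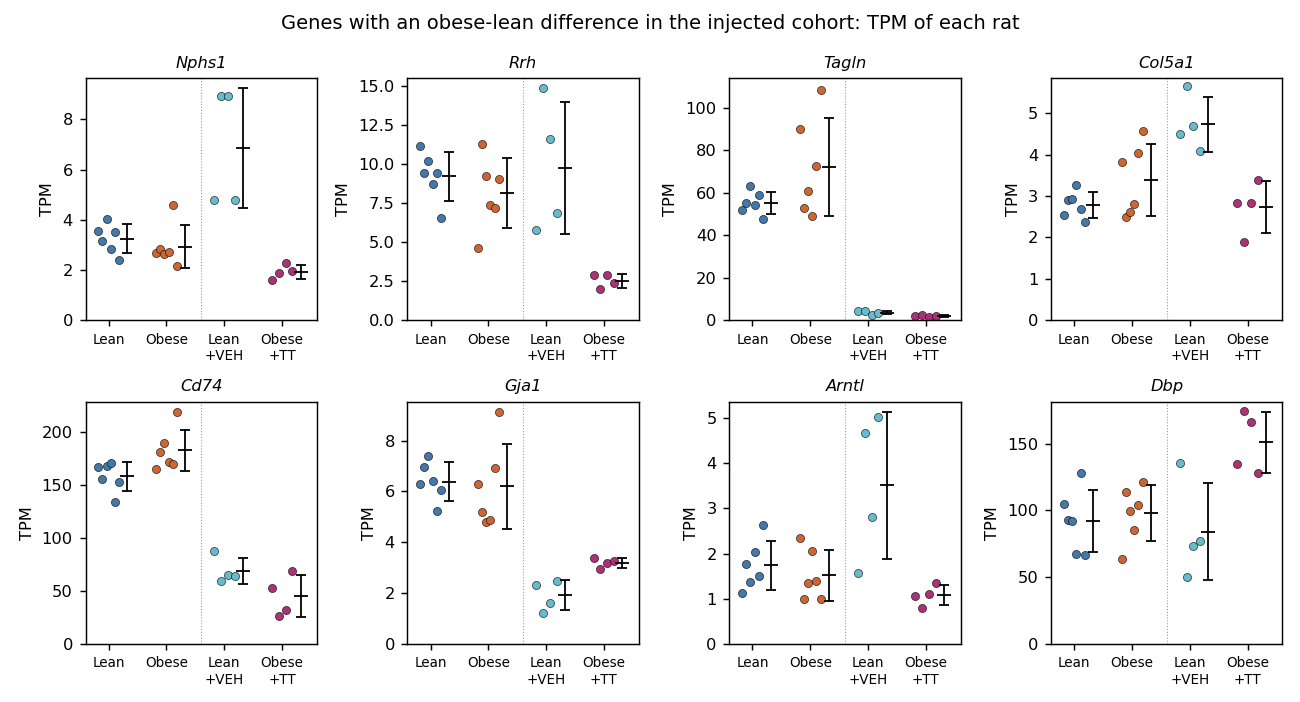
TPM of each rat (points), with the mean and SD of the group beside it, for 8 gained genes on linear axes from 0. The injected groups of Nphs1, Rrh, Tagln, Col5a1, Gja1 and Arntl are apart, those of Cd74 and Dbp overlap, and for Tagln, Cd74 and Gja1 all injected rats lie below all untreated rats.

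Of a list of 25 genes of the circadian clock, 7 carry a symbol, with the same limit on symbols, and were tested. For comparison, 13.4% of all genes with a symbol had an unadjusted p under 0.05 in the difference of contrasts. All 7 did, 6 of them higher and 1 lower, with a median of 0.47 and none past the adjusted threshold. Arntl was the lower one, and under quantile normalisation it was at -0.99 with an unadjusted p of 0.0578 (limma). Arntl, the activator of the clock loop, stood at 1.56, 4.67, 2.80 and 5.02 TPM in lean + VEH and at 1.06, 0.790, 1.11 and 1.35 in obese + TT rats, which were apart. Dbp, an output gene that Arntl drives, ran the other way at 136, 49.9, 73.5 and 76.9 TPM in lean + VEH and 135, 175, 166 and 128 in obese + TT rats. Lean + VEH rat 13 had the lowest Arntl and the highest Dbp of its group, at the level of the obese + TT rats for Dbp.

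The untreated groups of both genes overlapped. Arntl averaged 1.74 ± 0.543 TPM in lean and 1.52 ± 0.562 in obese rats, and Dbp 91.9 ± 23.2 and 97.9 ± 20.9 (SD, n = 6 each). Bhlhe41, a repressor of the clock, had -0.22 (standard error 0.15) in untreated and 0.63 (standard error 0.19) in injected rats, Nr1d2 (REV-ERB beta) had -0.02 and 0.34, and Wee1, a cell cycle kinase under clock control, had 0.18 and 0.65. The repressor Cry2 (-0.23 and 0.20) and Fbxl21 (-0.67 and -0.05), which tags cryptochromes for turnover, were lost rather than gained. Without lean + VEH rat 14, 3 of the 7 were higher and 1 lower, and without rat 13 the counts stayed at 6 and 1. Wee1 was named after its values were seen.

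Hba-a1 and Hba-a2, which encode the alpha chain of hemoglobin, were higher in the difference at an unadjusted p under 0.05 (limma, adjusted p 0.546 and 0.517). Quantile normalisation put Hba-a1 at 0.48 in place of 0.77 and Hba-a2 at 0.59 in place of 0.72, with unadjusted p-values in limma of 0.181 and 0.0872 that no longer passed 0.05. With robust moderation the unadjusted p-value of Hba-a1 in limma was 0.0522. Hba-a1 stood at 3303, 1278, 1287 and 1213 TPM in lean + VEH rats and at 4023, 2641, 4444 and 3110 in obese + TT rats. Lean + VEH rat 13 again lay with the obese + TT rats, and the other 3 lay below them. Its untreated difference was 0.35 (standard error 0.21) and its injected difference 1.12 (standard error 0.26). Hba-a2, a near copy with which reads may be shared, had 0.41 and 1.13. The 3 tested erythroid genes summed to 4259, 5551, 3474 and 6487 TPM in the 4 groups, and without rat 14 none of them passed p of 0.05. The part of blood left in the tissue was not tested.

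Of 16 tested transporters and enzymes of fluid secretion, 2 were higher in the difference at an unadjusted p under 0.05, Ca12 and Ca14, carbonic anhydrases at the cell surface that supply bicarbonate and protons, and none was lower. This share of 12.5% was near the 13.4% of all genes with a symbol. Ca12 averaged 474 ± 47.6 TPM in lean and 398 ± 37.7 in obese rats (SD, n = 6 each), and 550 ± 42.0 in lean + VEH and 597 ± 30.2 in obese + TT rats (SD, n = 4 each), with overlap in both cohorts. Slc12a2, the cotransporter NKCC1 of the luminal membrane, had differences of -0.08 (standard error 0.06) and 0.09 (standard error 0.07), and Stk39, the kinase SPAK that activates it, had -0.08 (standard error 0.05) and 0.07 (standard error 0.06). Neither passed p of 0.05 in the difference (0.099 and 0.0673, limma, unadjusted), but median-of-ratios scaling put the unadjusted p at 0.0397 for Slc12a2 and 0.0116 for Stk39. For Stk39 it was also under 0.05 with quantile normalisation (0.0212), array weights (0.0309), each cohort fitted alone (0.0483) and removal of Ttr and 13 mitochondrial transcripts (0.0315). Cab39l, a partner of SPAK, was the 1 of 5 tested kinase pathway genes that did, with -0.09 and 0.14, and without lean + VEH rat 14 none did.

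Of the 11 tested genes of retinoid handling, 3 were higher and 2 lower, a share of 45.5% against 13.4% of all genes with a symbol. Without lean + VEH rat 13 and without rat 14 the counts were 2 and 2. Stra6, the receptor that takes up retinol, had -0.10 in untreated and 0.32 (standard error 0.11) in injected rats, whose groups were apart. Rpe65, the isomerase of the visual cycle, lay at 4.62 to 6.73 TPM in lean and 2.61 to 4.12 in obese rats, which were apart, and at 2.47 to 3.82 in lean + VEH and 2.69 to 3.56 in obese + TT rats, which overlapped. Abca4, a retinoid flippase, had 0.02 and 0.29, and its difference no longer passed 0.05 without the trend (unadjusted p-value 0.0519 in limma). Rarg and Rrh, given above, were the lower ones. Lmx1a, a transcription factor of the roof plate and the 1 of 10 epithelial markers to pass p of 0.05, had -0.33 (standard error 0.07) in untreated and 0.08 (standard error 0.08) in injected rats.

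Of the genes known to answer to androgens in other tissues, none of 7 tested passed an unadjusted p of 0.05 in the difference, and their median was 0.020. With 8.51% of all genes and 13.4% of those with a symbol called, a count of 0 among so few says little. Without lean + VEH rat 14, 1 was lower, and without rat 13 the median was -0.064. Of 4 tested genes listed with steroid receptors and steroid metabolism, the 1 that passed was Prlr, the receptor of the peptide hormone prolactin, which is no steroid receptor. It averaged 263 ± 21.4 TPM in lean + VEH and 171 ± 17.4 in obese + TT rats (SD, n = 4 each), which were apart. Its untreated means were 155 ± 31.0 and 144 ± 33.6 TPM (SD, n = 6 each), which overlapped. Lepr, the gene mutated in these rats, stood at 32.3 to 112 TPM in lean, 29.2 to 40.3 in obese, 43.1 to 359 in lean + VEH and 53.6 to 85.7 in obese + TT rats, and 1 lean + VEH rat made the upper end of its group. Its difference of contrasts was 0.13 (standard error 0.61), and without lean + VEH rat 14 it was 0.83 with an unadjusted p-value of 0.0441 in limma.

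**Figure D5:**
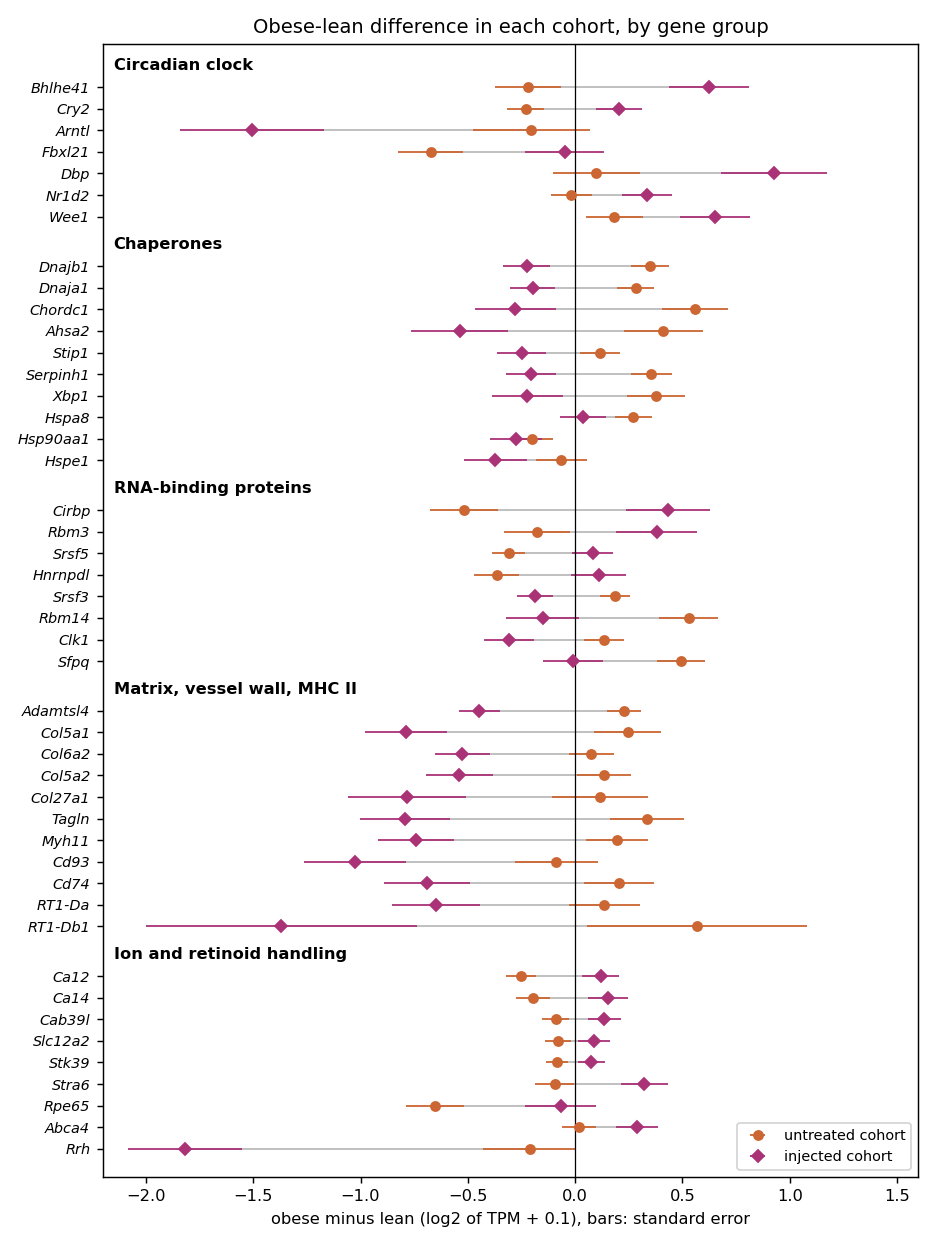
Obese-lean difference of named genes on the log2(TPM + 0.1) scale in untreated (circles) and injected rats (diamonds), with standard errors from the fit of 20 rats. The genes drawn were picked in part by their difference of contrasts and do not stand for their lists. Of those drawn, chaperones and matrix genes lie mostly to the right of 0 in untreated and to the left in injected rats. Clock genes other than Arntl and both carbonic anhydrases lie further right in injected rats, and Hsp90aa1 lies left of 0 in both. Over the full lists, signs were opposite in 12 of 19 tested heat shock chaperones, 4 of 19 of the endoplasmic reticulum and 8 of 16 matrix genes.

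Larger groups of housekeeping genes are given beside the 8.51% of all genes tested and the 13.4% of those with a symbol. Of 75 tested cytosolic ribosomal protein genes, 1 was higher and 9 lower in the difference at an unadjusted p under 0.05, with a median of -0.081 and a share of 13.3%, and of 73 nuclear genes of oxidative phosphorylation none was higher and 5 lower, with a median of -0.082 and a share of 6.85%. The latter count was 9 without lean + VEH rat 13 and 1 without rat 14. None of 29 proteasome subunits and none of 14 subunits of the vacuolar proton pump passed, though 1 of the latter was lower without lean + VEH rat 13. Of 13 transcripts of the mitochondrial genome, 3 were higher, Mt-nd1 (-0.26 in untreated and 0.03 in injected rats), Mt-co1 (-0.14 and 0.03) and Mt-atp8, which was listed at 0 in 2 of the 4 lean + VEH rats and at 11719 to 20675 TPM in the other 6 injected rats. The call of Mt-atp8 rests on these exact zeros, which may be failed estimates, and its difference of contrasts ran from 6.21 to 11.9 when 1 rat was left out. Without rat 14, 1 of the 13 was higher. Under quantile normalisation the difference of contrasts of Mt-co1 turned from 0.17 to -0.28 and that of Mt-nd1 was 0.13 in place of 0.29, which no longer passed 0.05 in limma. With no filter the unadjusted p was 0.321 for Mt-co1 and 0.0561 for Mt-nd1. Mt-co1 was also above 0.05 with a pseudocount of 0.01, a mean of at least 0.1 TPM, median-of-ratios scaling and each cohort fitted alone, at 0.0614 to 0.181. Of 58 solute carriers 4 were higher and 2 lower (6 and 3 without rat 13, 2 and 2 without rat 14), a share of 10.3%, and of 14 genes of cilia 3 were higher and none lower, a share of 21.4%. None of these lists had a gene past the adjusted threshold.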

How the data were processed

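RNA of the choroid plexus of 20 rats was sequenced as paired-end reads of 150 bp, with an output per the labels of 12 Gb. The submitters' processing notes name STAR 2.7.9a, RSEM 1.3.3 and DESeq2 3.16 and the build Rnor_6.0 (rn6), and the study's methods name Ensembl release 104. The authors deposited TPM and FPKM of 32883 genes for each rat. Which program computed these columns is not given in the sources used here, and TPM does not hold the number of reads counted for a gene in each rat. The deposited TPM summed to 1000000 in every rat to within 0.7. Deposited FPKM served as a check of scale only, its sum over that of TPM being 1.11 to 1.22 in untreated and 0.921 to 0.995 in injected rats. An exact 0 may be a failed estimate.

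Values were analysed as log2(TPM + 0.1), which understates fold changes of low genes, in the 12094 genes averaging at least 1 TPM over all rats. One model with a mean for each of the 4 groups was fitted in limma 3.58.1 under R 4.3.3 (eBayes with a trend, not robust). Benjamini-Hochberg adjustment covered all genes tested. Single genes were compared within a cohort by exact two-sided permutation tests, whose smallest p is 0.00216 for 6 + 6 and 0.0286 for 4 + 4 rats. The genes had been picked on the same values, so these p-values describe them and do not back their choice. The fit was tested on simulated data with 200 changed genes and noise drawn independently for each gene. At an adjusted p under 0.05 it recovered 22% of changes of 0.5 and 77.5% of changes of 1 on the log2 scale. Tables were handled in pandas 2.3.3 (Python 3.11.15) and plotted in matplotlib 3.10.9.

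The contrast, the classes and the 40 gene lists were chosen with earlier results of these data known. Genes are named when past the adjusted threshold, when among the smallest p of the difference in either direction or in a class, or when most abundant or smallest in p in a list, and a few others are marked as named after their values were seen. Symbols, for 2616 identifiers, come from the paper's supplementary files, which include genes called in these same rats. The symbols gave the names and also decided which members of a gene list could be tested. No rats of a group shared more than 1.9% of values. The 12 alternatives concern the pseudocount, filter, moderation, scaling, weights per rat and fitting each cohort alone, and each rat was left out in turn. Gene lists were also counted without lean + VEH rat 13 or 14, a choice made after seeing the data. Results of some genes are not reported here.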

Additional observations from a re-analysis of the deposited data

Results flagged for a closer look

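The obese-lean difference of Bicdl1 differed between the cohorts by a test of that difference itself, at -1.15 on the log2 scale (adjusted p = 0.0477, limma). The adjusted p of Bicdl1 did not stay under 0.05 in every alternative or in every fit without 1 rat. Fhod3, with a difference of contrasts of 0.72, drew attention because all 6 untreated obese rats lay below all 6 lean rats while all 4 obese + TT rats lay above all 4 lean + VEH rats. Its difference of contrasts was tested and missed the adjusted threshold.

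Single rats stood apart from their group in 14 of 324 groups of values checked, where chance gives about 1 in 20 groups, or 16.2. Lean + VEH rat 13 stood apart in 3 of them, with 3303 TPM of Hba-a1 (others 1213 to 1287), 1106 TPM of Hba-a2 (others 409 to 496) and 12.0 TPM of Wee1 (others 7.87 to 8.24). Lean + VEH rat 14 had 359 TPM of Lepr (others 43.1 to 58.8) and lean + VEH rat 16 had 6.15 TPM of Myh11 (others 8.08 to 8.43). Obese + TT rat 18 had 0.600 TPM of Cd93 (others 0.980 to 1.04). Among untreated obese rats, rat 11 had 4.58 TPM of Nphs1 and 474 TPM of Ca12, and rat 12 had 6.46 TPM of Nfya. Among lean rats, rat 2 had 3.39 TPM of Ahsa2, 14.2 TPM of Col6a2 and 68.3 TPM of Lmx1a, rat 3 had 7.78 TPM of Col5a2 and rat 5 had 4.02 TPM of Rarg. The part of these rats in the results was not tested beyond leaving each out in turn.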

How the results depend on the processing

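The count of 1 gene past the adjusted threshold in the difference of contrasts was not stable. It was 2 with a pseudocount of 0.01, 0 with a mean of at least 0.1 TPM, 0 with no filter, 0 without the trend, 0 with array weights, 10 after removing Ttr and 13 mitochondrial transcripts, 2 with median-of-ratios scaling and 13 with quantile normalisation, and from 0 to 13 when 1 rat was left out, the highest without lean + VEH rat 13. The difference of contrasts of Bicdl1 stayed between -1.17 and -1.04 under the 12 alternatives, with an adjusted p (limma) from 0.00319 to 0.118 that was under 0.05 in 8 of them. With a mean of at least 10 TPM fewer genes were tested, and the counts were 545 in the difference, 714 in the untreated and 470 in the injected contrast at an unadjusted p under 0.05, with 27 reversed, 223 lost and 189 gained genes. With no filter there were 1424 genes in the injected contrast and 623 gained. Reversed genes numbered 73 after removing Ttr and 13 mitochondrial transcripts, 82 with median-of-ratios scaling and 83 with quantile normalisation, and 29 (without lean + VEH rat 16) to 72 (without lean rat 6) when 1 rat was left out. Of the other settings for these counts, each stayed within 1.5 times. The share of higher genes among those with p under 0.05 in the difference was 38.5 to 49.4% across scalings (43.8% as reported). Quantile normalisation put the difference of contrasts of Ttr at 0.0 and that of Mt-co1 at -0.28. Leaving out 1 rat moved the difference of Lepr between -0.18 and 0.83 and that of Hsp90aa1 between -0.23 and 0.019. The causes were not tested. No paired analysis was possible because rats carry numbers that no 2 groups share. Precision is limited by 4 rats in each injected group, and TPM does not hold the reads counted for each gene.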
